A study of Homo sapiens with 10 samples.

Results

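The insulin-like growth factor (IGF) binding and signalling genes described here are the secreted binding proteins IGFBP2, IGFBP3, IGFBP4, IGFBP5, IGFBP6 and IGFBP7, the receptors IGF1R and IGF2R, and the adaptors IRS1 and IRS2. They were chosen by symbol, and all 10 were listed in both the RNA-Seq and the Ribo-Seq table, which share 11258 transcripts. BJ cells, human primary fibroblasts immortalized by telomerase (hTERT) expression, were left untreated (control) or kept on nutlin-3a for 2, 4, 6 or 19 h, and each of the 5 states was profiled by RNA-Seq on poly(A) RNA and by Ribo-Seq. Nutlin-3a keeps the ubiquitin ligase MDM2 away from p53 and so activates it. Its dose is not in the sample labels. Ribo-Seq sequences the mRNA fragments that ribosomes protect, here from cells given cycloheximide before lysis. All 10 libraries came from this single hTERT line, and every group was 1 library. No difference could be checked against replicates, and no p-value was computed.

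IGF1 and IGF2 are small secreted growth factors. They signal through IGF1R, a receptor tyrosine kinase at the cell surface, which phosphorylates the docking proteins IRS1 and IRS2 and so engages PI3K, AKT and mTOR. IGF2R, also known as the cation-independent mannose 6-phosphate receptor, has no kinase domain, carries IGF2 into the cell for degradation and sorts lysosomal enzymes. The IGFBPs hold IGFs in the extracellular space and are cut by proteases, fibroblasts secrete several of them, and IGFBP3 is a known p53 target gene. The ligand genes IGF1 and IGF2, and IGFBP1, were not analysed here.

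Short promoter stretches are shown because the treatment acts on a transcription factor. Promoters in RefSeq (GRCh38.p14), from 250 bases before to 50 after a start site, were matched by symbol for 9 of the 10 genes, all but IGFBP7, and searched on both strands for a p53 half-site, the TATA box TATAAA, the GC box GGGCGG and the forkhead motif GTAAACA. Of 35116 promoters, 6.63% held the p53 half-site, 11.5% TATAAA, 45.0% GGGCGG and 3.42% GTAAACA. The p53 half-site was found in 1 of the 9 genes, IGFBP2, at the most downstream of its RefSeq start sites. TATAAA was found in IGFBP4 alone and GTAAACA in IGFBP6 alone. GGGCGG was found in 8 genes, all but IGFBP5. The shares are per promoter, while a gene was counted if any of its start sites had a match. The gene counts can therefore not be set against those shares. Capitals mark 1 motif in each stretch below, read on the gene's strand, and position is that of its first base from the start site. The IGF2R stretch also holds a further GGGCGG, at position -48, in small letters. No marked motif overlaps a match of another motif searched, and a match is a description of letters, not of a bound site. The expression tables were made on hg19 transcripts and give no coordinates.
IGFBP2, p53 half-site, position -32, chr2:216659526-216659553, plus strand: agcttgctgGGGCTTGTCTcctggttac
IGFBP3, GC box on the opposite strand, position -98, chr7:45921354-45921381, minus strand: cctgcgccgacCCGCCCccctcccaacc
IGFBP4, TATA box, position -29, chr17:40443410-40443437, plus strand: ccagggaccggTATAAAgtccgggggag
IGFBP6, forkhead motif, position -186, chr12:53097471-53097498, plus strand: aatttgggaaGTAAACAgaaactggaaa
IGF2R, GC box, position -38, chr6:159969033-159969060, plus strand: ggggcggtgccGGGCGGctgtcacgtga

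Levels are FPKM (fragments scaled to transcript length and library size), which allow genes to be compared per length. As recovered from the spacing of the values, the RNA-Seq libraries held 23845558 to 27554287 reads and the Ribo-Seq libraries 7744899 to 14460726. The p53 targets CDKN1A and MDM2 were past 2-fold higher in RNA at all 4 times. All 10 fibroblast markers were above 1 FPKM in every RNA-Seq library, with a summed RNA level of 10080 to 13554 FPKM. The 2 epithelial markers and the 1 endothelial marker in the RNA-Seq table stayed below 1 FPKM, and of the blood list CD68 alone was above it. A gene was tested if its level reached 5 FPKM in 1 or more libraries of RNA-Seq and of Ribo-Seq alike, which 7015 did. IGFBP2 and IRS2 were too low for this filter, and the other 8 of the 10 genes passed it.

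All binding proteins but IGFBP2 were abundant transcripts in these cells. In the RNA-Seq control the order of levels was IGFBP5 (888 FPKM), IGFBP7 (441), IGFBP4 (381), IGFBP6 (143) and IGFBP3 (47.8), followed by IGF2R (40.8), IRS1 (16.8), IGF1R (14.1), IRS2 (2.78) and IGFBP2 (0.699). All neighbours in that order differed by more than their counting error. The IGFBP5 level was above that of 99.6% of tested genes. In Ribo-Seq the control order was led by IGFBP7 (940.4 FPKM), before IGFBP5 (297), IGFBP6 (290.3), IGFBP4 (231) and IGFBP3 (157), and the IGFBP5 and IGFBP6 levels did not differ beyond counting error. At 19 h IGFBP7 led in both assays by FPKM, and IGFBP5 was last of the 5 abundant binding proteins in Ribo-Seq. By reads the Ribo-Seq order was another, as the recovered length was 6215 nt for IGFBP5 and 1427 nt for IGFBP7. IGFBP5 took 21721 Ribo-Seq reads in the control, against 15786 for IGFBP7. At 19 h IGFBP5 took 18045, against 20742 for IGFBP7 and 10160 for IGFBP4. The order of genes in Ribo-Seq thus depends on the length to which reads are scaled. The IRS1 and IGF1R levels could not be told apart in RNA at 19 h, nor could IRS2 and IGFBP2 in Ribo-Seq in the control or at 19 h. The 6 binding proteins together took 0.721% of the RNA-Seq reads in the control (95% Wilson interval 0.717 to 0.724) and 0.720%, 0.681%, 0.560% and 0.658% (0.655 to 0.661) at the 4 later times. They took 0.420% of the Ribo-Seq reads in the control (0.416 to 0.424) and 0.558%, 0.494%, 0.620% and 0.741% (0.735 to 0.747) at the 4 later times. Their share of reads was thus lower in RNA at 4, 6 and 19 h than in the control, and higher in Ribo-Seq at every later time. Without IGFBP5, the RNA share of the other 5 was higher at 19 h than in the control, at 0.254% against 0.169%. These intervals, and every counting error below, cover counting alone.

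**Figure D1:**
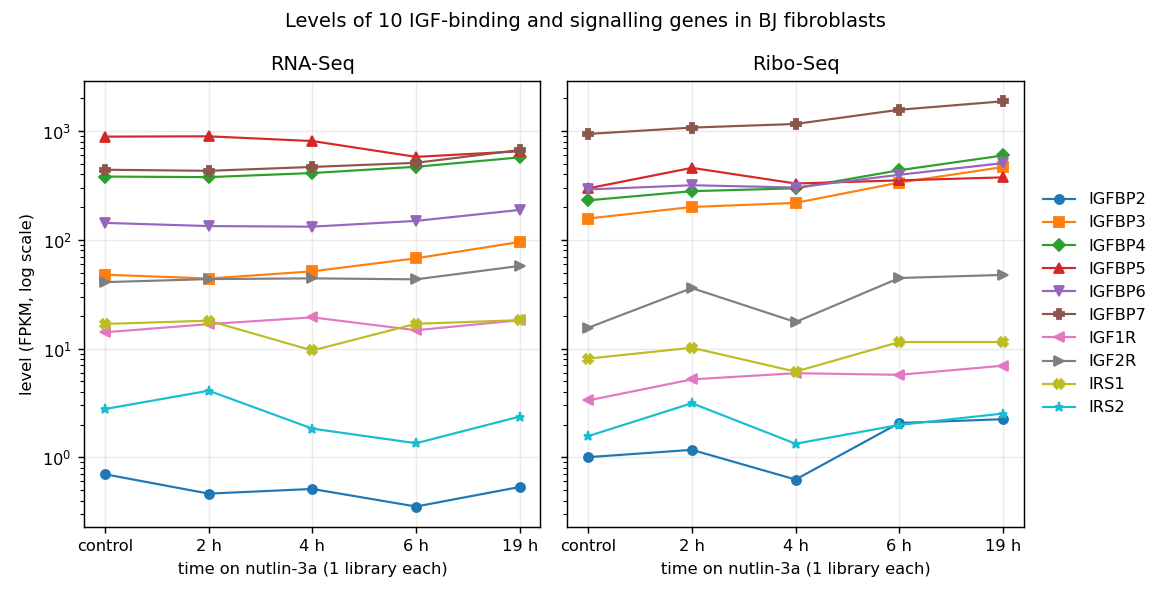
Level in FPKM (log scale) of each gene by RNA-Seq (left) and Ribo-Seq (right) in the control and after 2, 4, 6 and 19 h on nutlin-3a. Each point is 1 library, so there is no error bar. IGFBP7 is the highest line of the Ribo-Seq panel throughout, from 940.4 to 1877 FPKM, and IGF2R is high in Ribo-Seq at 2, 6 and 19 h but not at 4 h.

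Changes are log2 ratios to the control, within an assay, with values floored at 1 FPKM, ribosome density is the Ribo-Seq level, and translational efficiency (TE) is the log2 ratio of Ribo-Seq to RNA-Seq level. All 4 times were set against the same control libraries. In bulk samples, fewer cells of a type and less RNA per cell cannot be told apart. In RNA, 0 of the 8 genes that passed the filter were past 2-fold at any time, where 0.941%, 2.1%, 7.14% and 9.59% of all tested genes were past it at 2, 4, 6 and 19 h. In ribosome density, 1 of 8 was past 2-fold at 2 h (IGF2R, background 2.25%), 0 at 4 h (3.11%), 2 at 6 h (IGF2R and IGFBP3, 13.3%) and 4 at 19 h (IGF1R, IGF2R, IGFBP3 and IGFBP4, 21.1%). All of these were higher than in the control, a direction that 2.12%, 5.26% and 6.22% of tested genes took past 2-fold at 2, 6 and 19 h. In TE, IGF2R alone was past 2-fold, higher at 2, 6 and 19 h, with a background of 1.2%, 0.998%, 5.74% and 6.14% at the 4 times, or 1.14%, 3.21% and 1.94% for higher TE at 2, 6 and 19 h. Values just short of 2-fold were those of IGFBP3 RNA at 19 h (log2 change 0.9993) and IGFBP7 ribosome density at 19 h (0.997).

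The genes' median log2 change of ribosome density, over all 10, was 0.34, 0.16, 0.76 and 1.03 at the 4 times in order, beside 0.016, 0.10, -0.020 and -0.19 for all tested genes. In RNA the medians of the 10 were 0.0049, 0.04, 0.06 and 0.38, beside -0.05, -0.07, -0.0024 and -0.07. In TE they were 0.35, 0.27, 0.67 and 0.74, beside 0.04, 0.18, 0.0021 and -0.07. The tested genes all passed the filter, whereas 8 of the 10 did. Over those 8 the medians were 0.34, 0.24, 0.76 and 1.03 in ribosome density. They were -0.0037, 0.09, 0.07 and 0.45 in RNA, and 0.35, 0.27, 0.61 and 0.63 in TE. All 10 genes lay above the control in ribosome density and in TE at 2, 6 and 19 h, and they also lay above the median of the tested genes in each of these comparisons. Of the tested genes 51.9%, 48.5% and 39.9% were above the control in ribosome density at those times, and 56.5%, 50.2% and 44.4% in TE. IGFBP2 and IRS2, among the 10, had not passed the filter, and some of their directions were not resolved by counting. IGFBP2 at 2 h was at 0.22 ± 0.48 (counting SE) in ribosome density and 0.22 ± 0.65 in TE. IRS2 at 6 h was at 0.34 ± 0.18 in ribosome density. With a floor of 5 FPKM, IGF1R lay below the control in TE at 2 h (-0.19) and the low genes IGFBP2 and IRS2 were at 0. With the 2 h library as baseline, 8 of the 10 lay above it in ribosome density at 19 h, all but IGFBP5 and IRS2, beside 35.2% of tested genes. At 4 h 4 of the 10 lay above that baseline in ribosome density (58.1% of tested genes) and 1 of the 10 in TE (64.9%). At 4 h the genes above the control were 7 of the 10 in ribosome density and 9 of the 10 in TE, beside 61.4% and 73.3% of tested genes. The median log2 change of ribosome density of the fibroblast markers was 0.56, 0.04, 0.37 and 0.55 at the 4 times. It was above that of the tested genes at 2, 6 and 19 h and below it at 4 h. Of the 10 markers 4 (COL1A1, COL1A2, FN1 and PDGFRB) were past 2-fold higher at 6 and 19 h, beside 5.26% and 6.22% of tested genes. The others were not past it, and LUM lay below the control at both times (-0.41 and -0.25). The part of these markers in the result was not tested. Sequencing runs differed. By the methods, the late libraries were each compared with a control of the same run. The run of the early libraries, at 2 and 4 h, is not given in the sources used here. By the study's read statistics, fewer Ribo-Seq reads of the control and the late libraries started in frame than in its other runs. The control also had a larger share of reads past the coding sequence than the 6 h library. The part of these differences in the result was not tested.

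**Figure D2:**
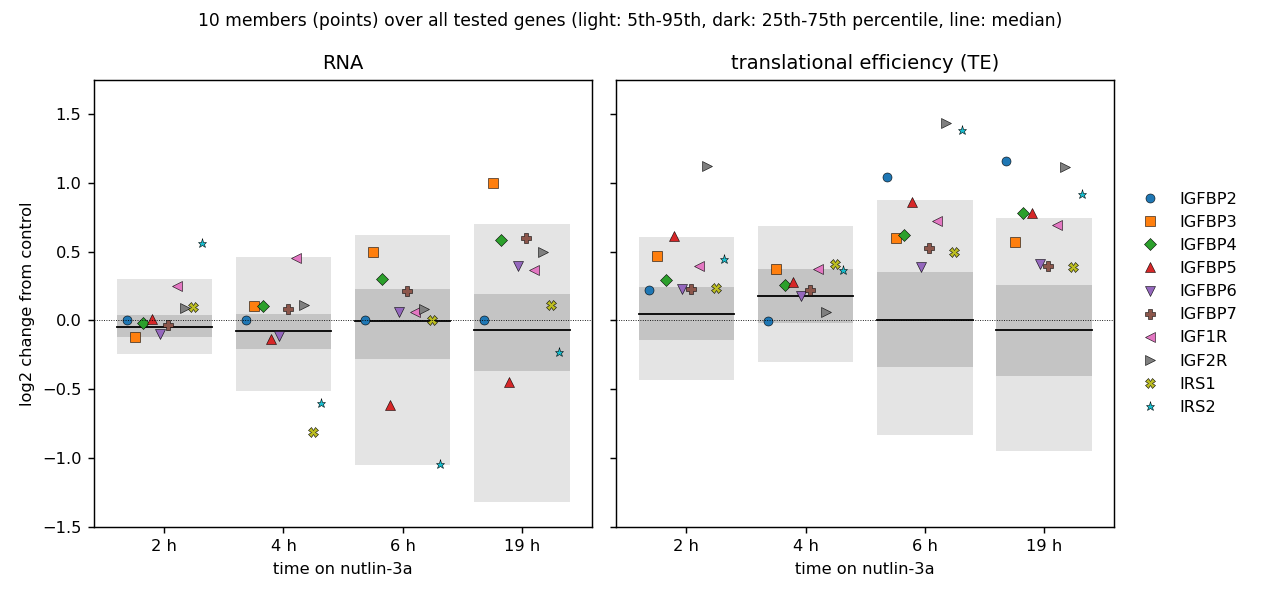
Log2 change from the control in RNA (left) and TE (right) of the 10 genes (points), over all 7015 tested genes (light bar, 5th to 95th percentile; dark bar, 25th to 75th; line, median). In TE all 10 points lie above the median line at 2, 6 and 19 h, with IGF2R at 1.12 and 1.43 at 2 and 6 h; RNA of IGFBP2 was below 1 FPKM in all libraries, so its RNA change is 0 and its TE change equals that of ribosome density.

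IGFBP3 (ENSG00000146674), the main carrier of IGFs in blood, had the largest RNA change of the binding proteins. From the control to 19 h its RNA level was 47.8, 44.0, 51.3, 67.6 and 95.6 FPKM. Ribo-Seq levels were 157, 200.4, 218, 336 and 466 FPKM in the same order. RNA was thus near the control up to 4 h and higher at 6 and 19 h, while the Ribo-Seq level of every treated library was above the control. The log2 change at 19 h was 1.00 ± 0.05 (counting SE) in RNA and 1.57 ± 0.04 in ribosome density, the latter exceeded by 2.14% of tested genes. In TE the log2 change was 0.47 ± 0.07 at 2 h and 0.57 ± 0.06 at 19 h. With a cut-off that depends on level, of the kind in the study's methods, IGFBP3 was the 1 gene of the 8 past it in RNA at 19 h (background 6.71%). In ribosome density 0 of the 8 were past that cut-off at 19 h (7.28%).

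IGFBP4 (ENSG00000141753), which restrains IGF action until it is cut by the protease PAPPA, had an RNA level of 381 FPKM in the control and 377, 411, 469 and 572 at 2, 4, 6 and 19 h. By Ribo-Seq the level was 231 FPKM in the control and 280.0, 297, 436 and 596 thereafter. Both assays were highest at 19 h, and Ribo-Seq was above the control at every time. The log2 change at 19 h was 0.59 ± 0.01 in RNA, 1.37 ± 0.02 in ribosome density and 0.78 ± 0.03 in TE.

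IGFBP7 (ENSG00000163453), a secreted protein that binds IGFs weakly, had an RNA level of 441 FPKM in the control and 431, 468, 510.1 and 669 at the 4 times. The Ribo-Seq level, the highest of the 10 genes, was 940.4 FPKM in the control and 1075, 1161, 1569 and 1877 thereafter. The Ribo-Seq values were in the order of time, with the 19 h library nearly at 2-fold the control (ratio 2.00). The log2 change at 19 h was 0.60 ± 0.01 in RNA and 0.39 ± 0.02 in TE.

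IGFBP6 (ENSG00000167779), which prefers IGF2 over IGF1, had an RNA level of 143 FPKM in the control and 134, 132, 149 and 188 at the 4 times. Its level in Ribo-Seq was 290.3 FPKM in the control and 317, 302, 396 and 507 thereafter. RNA was slightly below the control at 2 and 4 h, with log2 changes of -0.10 ± 0.03 and -0.12 ± 0.03. The medians of all tested genes were then -0.05 and -0.07, and 31.3% and 40.5% of tested genes were lower than IGFBP6. At 19 h RNA was above the control, at 0.40 ± 0.03. The log2 change of ribosome density at 19 h was 0.80 ± 0.03, and that of TE 0.41 ± 0.04.

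IGFBP5 (ENSG00000115461), a binding protein that attaches to extracellular matrix, was the one abundant binding protein whose RNA was lower late in the series. RNA was at 888 FPKM in the control and at 894, 809, 579 and 651 FPKM at the 4 times. Ribo-Seq gave 297 FPKM in the control and 459, 329, 352 and 375 thereafter, with the highest value at 2 h. In RNA the log2 change was -0.62 ± 0.01 at 6 h and -0.45 ± 0.01 at 19 h. Ribosome density was above the control at the same times, by 0.24 ± 0.01 and 0.34 ± 0.01 on the log2 scale. TE changed by 0.62 ± 0.01, 0.28 ± 0.01, 0.86 ± 0.02 and 0.78 ± 0.02 (log2) at the 4 times. RNA and ribosome density thus lay on opposite sides of the control at 6 and 19 h. With the 2 h library as baseline this was not so, as ribosome density was then lower too, with log2 changes of -0.38 and -0.29 at those times. IGFBP5 took 0.552% of RNA-Seq reads in the control and 0.405% at 19 h, and 0.185% and 0.233% of Ribo-Seq reads.

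IGFBP2 (ENSG00000115457), the neighbour of IGFBP5 on chromosome 2, was near the detection limit. RNA levels were 0.699, 0.464, 0.512, 0.353 and 0.534 FPKM from the control to 19 h, from 14 to 24 reads. Ribo-Seq levels were 1.00, 1.17, 0.625, 2.07 and 2.24 FPKM, from 13 to 30 reads. The Ribo-Seq libraries of 6 and 19 h were the highest, with log2 changes of 1.04 ± 0.44 and 1.16 ± 0.45. With so few reads, a change of RNA was not detectable at this depth.

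**Figure D3:**
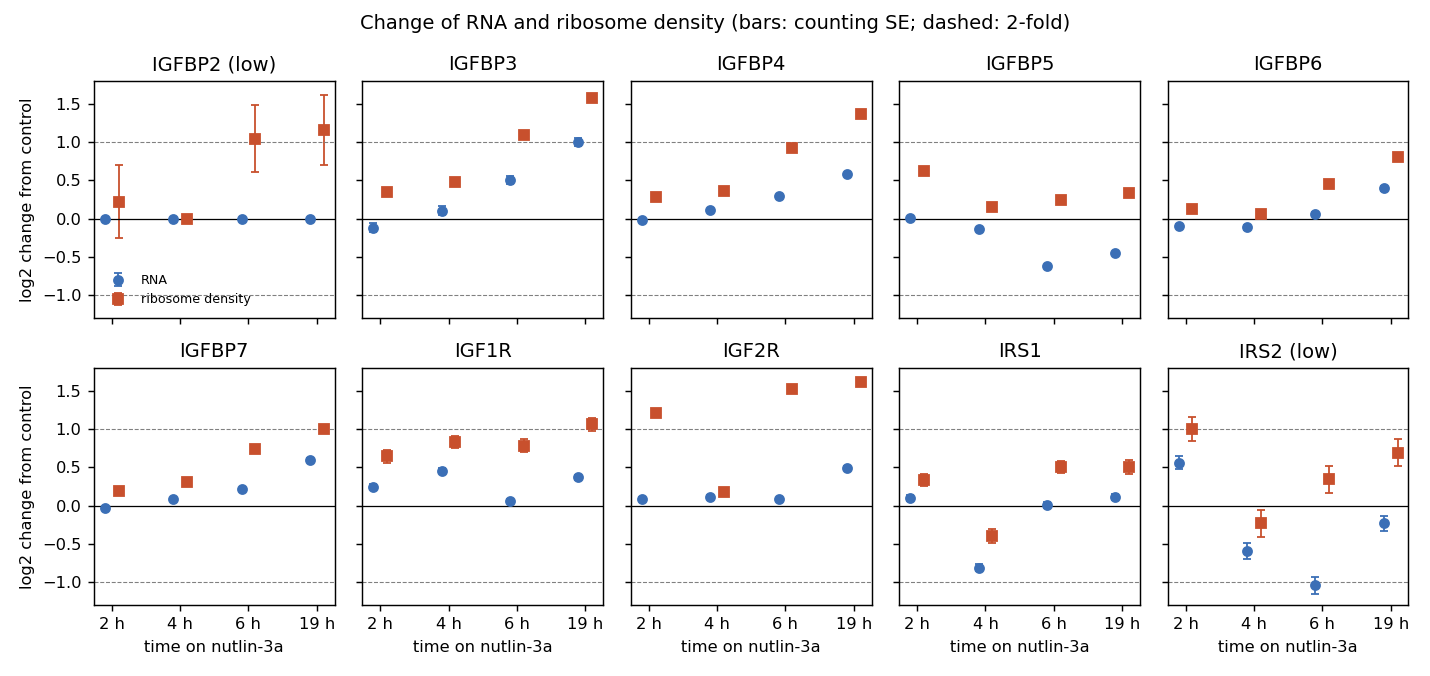
Log2 change from the control of RNA (circles) and ribosome density (squares) at 2, 4, 6 and 19 h of nutlin-3a, 1 panel a gene. Bars are counting SE from the recovered reads (none where the level was below 1 FPKM), and dashed lines mark 2-fold. In the 5 abundant binding proteins the square lies above the circle at all 4 times, and in IGFBP5 the circle lies below 0 at 6 and 19 h (-0.62 and -0.45).

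IGF1R (ENSG00000140443), the signalling receptor, had an RNA level of 14.1 FPKM in the control and 16.8, 19.4, 14.7 and 18.2 at the 4 times. By Ribo-Seq it was at 3.34 FPKM in the control and 5.21, 5.94, 5.74 and 6.96 thereafter. RNA was highest at 4 h, at a log2 change of 0.46 ± 0.03, and nearest the control at 6 h, at 0.06 ± 0.03. In both assays the level of all treated libraries lay above the control. Ribosome density changed by 0.64 ± 0.09, 0.83 ± 0.08, 0.78 ± 0.09 and 1.06 ± 0.09 (log2) at the 4 times. At 4 h this change was exceeded by 4.33% of tested genes. TE was above the control by 0.39 ± 0.09 (log2) at 2 h and by 0.69 ± 0.09 at 19 h. With log2(FPKM + 1) in place of the floor, or with a floor of 5 FPKM, IGF1R was no longer past 2-fold and 3 rather than 4 of the genes were, in ribosome density at 19 h. The IGF1R transcript was the longest of the 10, at 11803 nt, and with the length trend described below subtracted the change was 0.31 at 2 h and 0.70 at 19 h. With the 2 h library as baseline it was 0.42 at 19 h.

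IGF2R (ENSG00000197081) was past 2-fold in both ribosome density and TE at 2, 6 and 19 h. RNA levels were 40.8, 43.5, 44.2, 43.3 and 57.5 FPKM from the control to 19 h. Ribo-Seq levels were 15.5 FPKM in the control and 36.0 (2 h), 17.5 (4 h), 44.6 (6 h) and 47.6 (19 h). The Ribo-Seq libraries thus fell into a low pair, the control and 4 h, and a high set of 2, 6 and 19 h, with no such pattern in RNA. Ribosome density changed by 1.21 ± 0.04, 0.17 ± 0.05, 1.52 ± 0.04 and 1.61 ± 0.04 (log2) at the 4 times. The TE change was 1.12 ± 0.05, 0.06 ± 0.05, 1.43 ± 0.05 and 1.12 ± 0.05 in the same order. At 2 h the TE change was exceeded by 0.784% of tested genes and at 4 h by 66.3%. From 2 to 4 h ribosome density was lower by a factor of 0.487, and from 4 to 6 h higher by 2.54, while RNA ratios over these steps were 1.02 and 0.979.

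The IGF2R pattern was shared in part by long transcripts. The recovered transcript length of IGF2R was 9091 nt. Across 7003 tested genes with a recovered length, the log2 change of ribosome density had a slope per doubling of length of 0.15, -0.0018, 0.11 and 0.16 at the 4 times. Among 167 genes of 7656 to 10784 nt the median log2 change of ribosome density was 0.38, 0.18, 0.31 and 0.23 at the 4 times, and 11, 87, 12 and 13 of these genes lay above IGF2R. With the length trend subtracted, the change of IGF2R was 0.94 at 2 h and 1.32 at both 6 and 19 h. With the 2 h library as baseline in place of the control, IGF2R was 1.32-fold higher in ribosome density at 19 h. The part of length, and of the control and 4 h libraries, in the IGF2R result was not tested. The abundant binding proteins other than IGFBP5 were short, from 1050 nt (IGFBP3) to 2200 nt (IGFBP4). At 19 h the median change of ribosome density was negative in every length bin but the longest (0.05), and so not in that range alone.

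**Figure D4:**
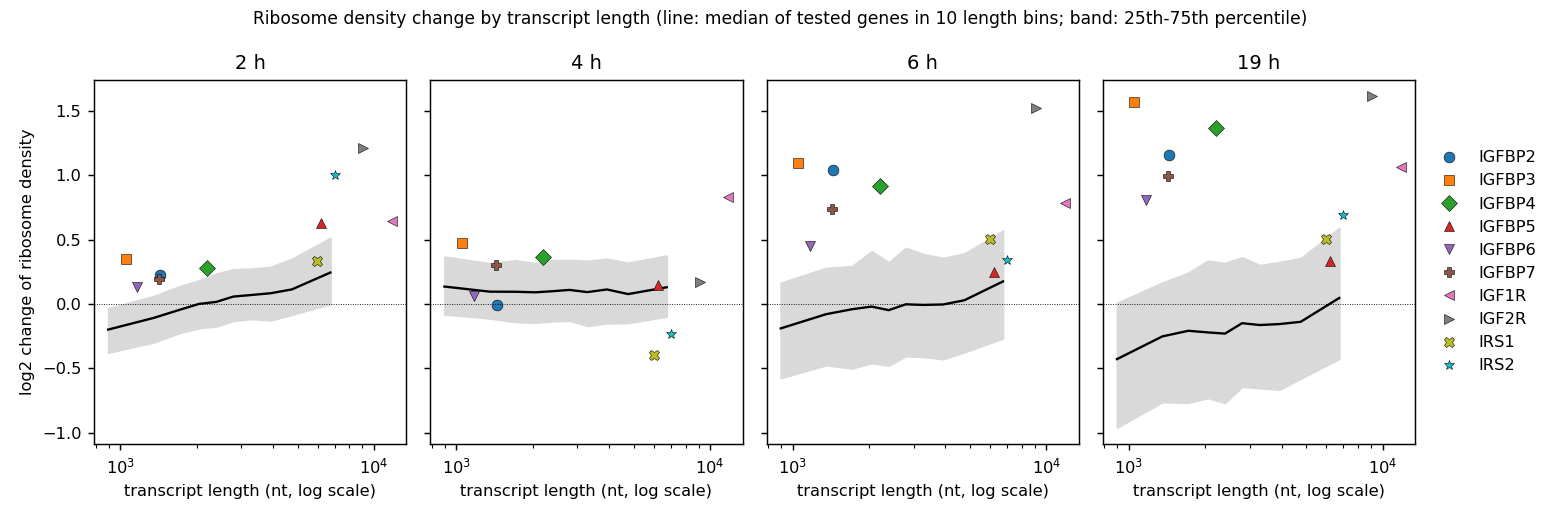
Log2 change of ribosome density against transcript length (nt, log scale) at each time, with the median (line) and 25th to 75th percentile (band) of tested genes in 10 length bins, and the 10 genes as points. IGF2R lies above the band at 2, 6 and 19 h and among the values of the band at 4 h, and IGFBP3 and IGFBP4 lie above it at 19 h (1.57 and 1.37).

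IRS1 (ENSG00000169047), the main docking protein of the insulin and IGF1 receptors, had RNA levels of 16.8, 18.0, 9.60, 16.9 and 18.2 FPKM from the control to 19 h. Its level by Ribo-Seq was 8.09 FPKM in the control and 10.2, 6.14, 11.5 and 11.5 thereafter. The 4 h library was the lowest in both assays, and the other RNA-Seq libraries lay between 16.8 and 18.2 FPKM. The log2 change at 4 h was -0.81 ± 0.05 in RNA and -0.40 ± 0.09 in ribosome density. In ribosome density 91.9% of tested genes were above it at that time. With the cut-off that depends on level, IRS1 was the 1 gene of the 8 past it in RNA at 4 h (background 6.39%). The TE of IRS1 was above the control at every time, by 0.23 ± 0.09, 0.41 ± 0.10, 0.50 ± 0.09 and 0.39 ± 0.10 on the log2 scale.

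IRS2 (ENSG00000185950), the second docking protein of the family, was too low for the filter. RNA levels were 2.78, 4.10, 1.84, 1.35 and 2.37 FPKM from the control to 19 h, from 260 to 773 reads. Those of Ribo-Seq were 1.57, 3.15, 1.33, 1.99 and 2.53 FPKM, from 129 to 261 reads. Both assays were highest at 2 h. RNA changed by 0.56 ± 0.08, -0.60 ± 0.11, -1.04 ± 0.11 and -0.23 ± 0.10 (log2) at the 4 times. RNA thus lay above the control at 2 h and below it later, with the lowest value at 6 h. In ribosome density the log2 change was 1.01 ± 0.16 at 2 h, and that of TE was 1.39 ± 0.21 at 6 h. Ribosome density at 6 h was above the control by 0.34 ± 0.18, when RNA was lowest.

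IRS2 and IGFBP3 had the widest RNA range of the 10 genes on the log2 scale. By the root mean square difference over the 8 log2 changes of RNA and ribosome density, the tested genes most like IRS2 were HK2 (0.25), C14orf43 (0.26) and SRRM2 (0.26), against a median of 0.78 over tested genes. Those most like IGFBP3 were LRP10 (0.10), ZNF524 (0.12) and MMP2 (0.12), against a median of 0.91. HK2 encodes a hexokinase and MMP2 a secreted matrix metalloproteinase. In MMP2 the log2 change at 19 h was 0.98 in RNA and 1.41 in ribosome density.

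The other genes of the pathway were counted by list. Of 67 genes in 5 lists, 55 were in both tables and 35 were tested. In RNA 1 of 35 was past 2-fold at 2, 4 and 19 h each, and 0 at 6 h, all higher. Their median log2 change at 19 h was -0.0028 in RNA, 0.03 in ribosome density and -0.0051 in TE. By the naming rule, the tested gene past 2-fold in RNA at 19 h was LRP1, an endocytic receptor that also binds IGFBP3. Its RNA level was 116 FPKM in the control and 122, 136, 122 and 274 at the 4 times. By Ribo-Seq it was at 30.4 FPKM in the control and 113, 40.7, 207 and 308 thereafter. As in IGF2R, the Ribo-Seq level of LRP1 was lower at 4 h than at 2, 6 and 19 h. The log2 change at 4 h was 0.42 in LRP1 and 0.17 in IGF2R, beside a median of 0.10 over tested genes. The length of its transcript was not recovered.

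Among ligands, other binding proteins and their proteases, 6 of 12 listed genes were in both tables and 4 were tested. None of the 4 was past 2-fold at 19 h, and their median log2 change then was 0.42 in RNA and 0.84 in ribosome density. PAPPA, the protease that cuts IGFBP4, was below the filter but past 2-fold in RNA at 19 h. Its RNA level was 0.830 FPKM in the control and 1.18, 3.04, 6.37 and 9.19 at the 4 times, with Ribo-Seq levels of 0.357, 0.531, 1.14, 2.72 and 4.37 FPKM from the control to 19 h. PAPPA was thus higher in each later library in both assays. STC1, an inhibitor of PAPPA named after its values were seen, was past 2-fold at 4 h alone, with RNA levels of 21.7, 31.4, 57.4, 21.5 and 23.2 FPKM.

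Among receptors and co-receptors, 5 of 7 were tested, and none other than LRP1 was past 2-fold at any time. INSR, the insulin receptor, was below the filter, with RNA levels of 2.45, 2.81, 1.44, 1.72 and 2.23 FPKM, the lowest at 4 h. Among 9 tested adaptors and inhibitors at the receptor, SOCS3 was past 2-fold in RNA at 2 h (11.6 to 26.6 FPKM) and GRB10 in ribosome density at 4 h (2.93 to 7.03 FPKM). Of all tested genes 0.927% and 2.58% were past 2-fold higher in these comparisons, in order. Of 16 tested genes of PI3K, AKT and downstream steps, none was past 2-fold in RNA. RHEB, an activator of mTOR, was past 2-fold lower in ribosome density at 19 h (50.7 to 22.9 FPKM), as were 14.9% of all tested genes. INSR, SOCS3, GRB10 and RHEB were named after their values were seen. FOXO4, below the filter, was past 2-fold in RNA at 19 h (1.50 to 3.06 FPKM). Of the IGF2 mRNA binding proteins IGF2BP2 alone was tested, with an RNA level of 34.8 FPKM in the control and 35.5 at 19 h.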

How the data were processed

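Gene expression was measured by RNA-Seq and Ribo-Seq in 10 libraries, 1 per assay and time. Bowtie alignment by the authors, as their methods state, was to 1 protein-coding transcript per gene (Ensembl release 65; hg19 per the submitters' notes) with unique hits kept. They deposited FPKM with 3 decimals, in 2 tables. The table named for both assays was read as RNA-Seq: of 28 histone transcripts, which lack poly(A) tails, 21 were below 1 FPKM in its control and 0 in the other's. The methods describe Ribo-Seq reads in the coding sequence, but columns are headed total and recovered lengths mostly matched between tables, so TE was compared within a gene over time and not between genes.

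Transcript lengths, reads and library totals were recovered from the spacing of FPKM values, for 99.8% of 11258 transcripts and all 10 genes, by a procedure tested on simulated data. They gave counting SEs only. Values were floored at 1 FPKM. With 1 library per group, called means past 2-fold, and every member was named. Alternatives were log2(FPKM + 1), a floor of 5 FPKM, no filter, the 2 h library as baseline, subtraction of the median or of a length trend, and a sliding cut-off of 1.75 local SDs over 501 genes. Members and lists were chosen with earlier results of these data known. Scripts used Python 3.11.15, numpy 2.4.6 and pandas 2.3.3.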

Additional observations from a re-analysis of the deposited data

Results flagged for a closer look

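The following results differed in direction between time points by more than their counting errors. The differences were not tested, as each time point was 1 library. In RNA, IGFBP3 had a log2 change of 0.9993 at 19 h and -0.1186 at 2 h. With the median of tested genes subtracted the 2 h value was -0.0733, against a counting SE of 0.058. IGFBP6 RNA was at 0.3959 at 19 h and -0.1155 at 4 h. The latter was -0.0417 with the median subtracted, against a counting SE of 0.033. IGFBP7 RNA was at 0.6024 at 19 h and -0.0332 at 2 h, and the latter turned to 0.012 with the median of tested genes subtracted. IRS1 RNA was at 0.1146 at 19 h and -0.8114 at 4 h, and its ribosome density was at 0.5062 at 6 h and -0.3976 at 4 h. IRS2 RNA was at 0.5598 at 2 h and -1.0443 at 6 h, on a level below the filter.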

How the results depend on the processing

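Counts of genes past 2-fold are of the 8 that passed the filter, or of all 10 with no filter, all higher unless stated. With the 2 h library as baseline, 1 gene was past 2-fold in RNA at 19 h, 1 (lower), 0 and 2 in ribosome density at 4, 6 and 19 h, and 1 (lower), 0 and 0 in TE. The log2 change of IGF2R TE at 19 h then was -0.00062. With the sliding cut-off, 1 gene was past it in RNA at 4 h (lower) and 1 at 19 h. In ribosome density 1 and 0 were past it at 6 and 19 h, and in TE 2 at 2 h. Of all tested genes, 6.39%, 6.71%, 7.31%, 7.28% and 7.36% were past it in these comparisons, in order. With the length trend subtracted, 1 gene was past 2-fold in RNA at 19 h, 0 in ribosome density at 2 h and 0 in TE at 2 and 19 h. With the median of tested genes subtracted, 1 was past 2-fold in RNA at 19 h. With no filter, 1 gene was past 2-fold in RNA at 6 h (lower) and 2 in ribosome density at 2 h. IGFBP2 was then also past it in ribosome density at 6 and 19 h. In TE 3 and 2 genes were past it at 6 and 19 h without the filter. Apart from the sliding cut-off, the share of tested genes past 2-fold under each setting is not given, so these counts have no background. Where RNA at 19 h gained a gene it was IGFBP3, at 0.9993 in the report. The causes of other shifts were not tested. The 2 h baseline changed the sign of 19 of 90 log2 changes of the 10 genes and lost 11 of 14 changes past 2-fold. Of 120 log2 changes, the sign turned in 2 with a floor of 5 FPKM, 5 with the median subtracted, 3 with the length trend subtracted and 0 with log2(FPKM + 1). No paired analysis was possible because each group is 1 library. No replicate could be left out for the same reason. Depth limits IGFBP2 most, with 13 reads in its lowest library, and the other genes below the filter.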
